A study of Mus musculus with 8 samples.

Results

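Lysosomal genes of cholesterol handling and protein breakdown were examined in the livers of mice given an inhibitor of the microRNA miR-128-3p. The set holds 9 genes: Npc1, Npc2 and Lipa, which handle cholesterol in the lysosome, the protease genes Ctsb, Ctsd and Ctsl, the membrane protein genes Lamp1 and Lamp2, and Tfeb, the transcription factor of lysosomal genes. They were picked by name, and a gene was followed through a probe set that the array annotation assigns to it alone. Of the 9 genes, 8 had such a probe set among the 30627 genes tested, and each of the 8 had only 1, so that the step of taking the brightest probe set decided nothing here. The probe set for Ctsd, the gene of an aspartic protease, also names Ifitm10, and Ctsd is not analysed here.

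The data are 8 arrays of liver RNA from male C57BL/6 mice, of which 4 had received anti-miR-128-3p, an antisense inhibitor, and 4 were controls. A high fat diet, which raises blood cholesterol, was fed to all 8 mice for 13 weeks, and both groups received 5 injections into the peritoneal cavity. The labels call the control a vehicle in one place and only a control in others, and one treatment field names miR-128-3p itself where the titles name the inhibitor. The titles were followed. No age, dose or array batch was used here, and each array was taken as 1 mouse, which the numbered titles do not state outright. The p-values weigh the difference between the groups against the spread between samples within a group, for these 8 samples.

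The microRNA that the inhibitor is directed against has the same mature sequence at both of its genes, Mir128-1 at chr1:128202404-128202424 on the plus strand and Mir128-2 at chr9:112118644-112118664 on the minus strand (RefSeq, GRCm38.p6). It is shown because its seed, bases 2 to 8, in capitals, is the stretch through which it recognises messenger RNAs.
mmu-miR-128-3p: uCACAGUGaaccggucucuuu

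Cholesterol reaches the lysosome of a liver cell mostly as cholesteryl ester inside lipoproteins. Lysosomal acid lipase, the product of Lipa, frees the cholesterol, NPC2 binds it in the lumen and hands it to NPC1, and NPC1 passes it through the lysosomal membrane to the rest of the cell, where it lowers sterol synthesis. Cathepsins are the proteases of the same compartment. LAMP1 and LAMP2 make up much of the protein of its membrane, and TFEB, held in the cytoplasm by the kinase complex mTORC1 while nutrients are plentiful, turns on genes for lysosomes and autophagy.

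Of the 8 genes measured, Npc2 was higher in livers given anti-miR-128-3p and Lamp2 was lower, each with no overlap between the groups, and the other 6 overlapped. None passed the correction over all genes. Differences are in log2 signal, anti-miR-128-3p minus control, with limma's standard error (SE), and p-values were adjusted by the Benjamini-Hochberg method over all 30627 genes with a threshold of 0.05. Over all genes limma called 0 (0%), and 2337 genes, or 7.63%, had an unadjusted p under 0.05. The groups did not overlap in 1351 genes, or 4.41%. Of the lysosomal genes, 2 of 8 had an unadjusted p under 0.05 and the same 2 had groups that did not overlap, 1 in each direction. By direction, an unadjusted p under 0.05 was reached by 4.26% of all genes as higher and 3.37% as lower in treated livers, and no overlap by 2.52% as higher and 1.89% as lower. Since the genes were picked with results of these data in view, nothing is read from that share.

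**Figure D1:**
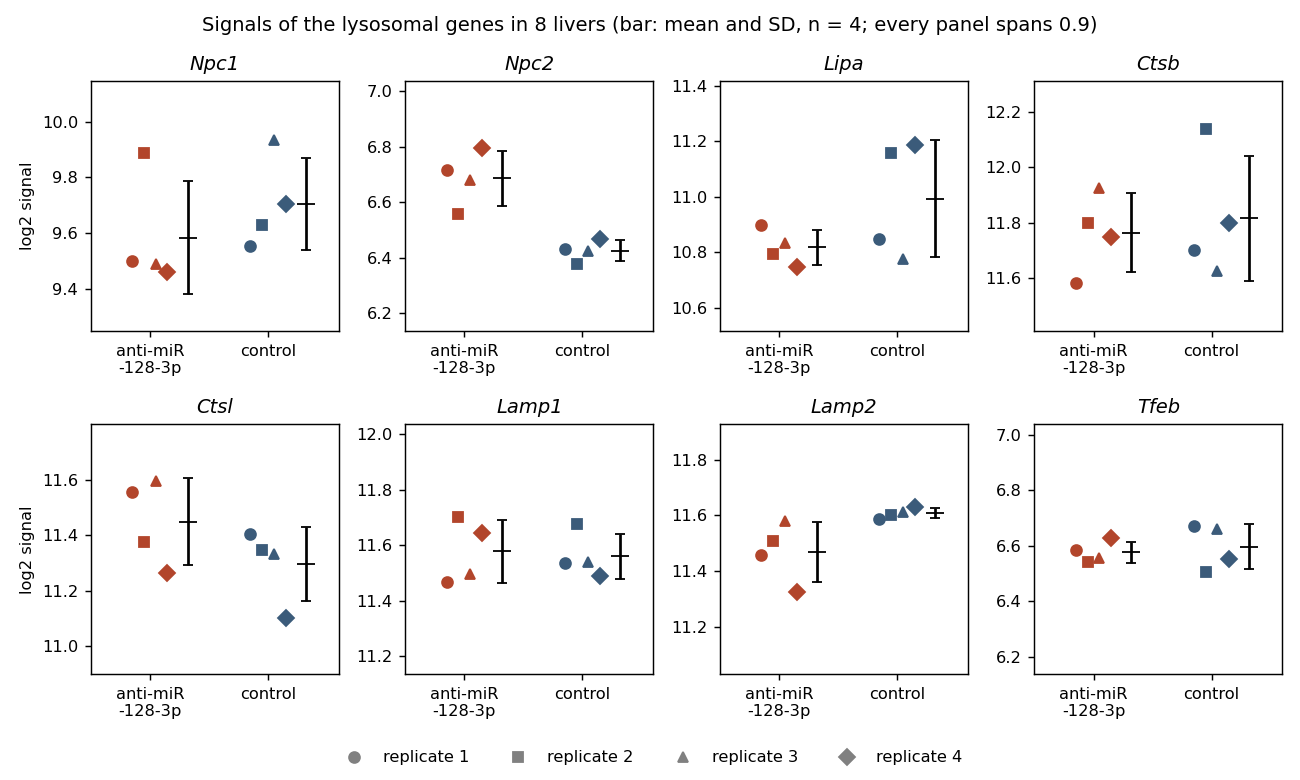
Log2 signal of each of the 8 lysosomal genes, 1 point per liver with its shape giving the replicate number, anti-miR-128-3p on the left of each panel and control on the right, with bars for mean and SD (n = 4 each). The 4 treated points of Npc2 lie above all 4 control points and those of Lamp2 lie below, while the groups overlap in the other panels.

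Npc2, the soluble cholesterol carrier of the lysosomal lumen, had log2 signals of 6.72, 6.56, 6.68 and 6.80 in livers given anti-miR-128-3p, against 6.43, 6.38, 6.43 and 6.47 in control livers. All 4 treated livers were above the highest control liver, and the controls lay close together. The means were 6.69 ± 0.099 in treated and 6.43 ± 0.038 in control livers (SD, n = 4 each), a difference of 0.26 ± 0.057 or 1.20-fold. Its adjusted p by limma was 0.239 (unadjusted 0.0013), so the difference did not pass, although it was larger than the spread within either group. The 95% interval of the fold difference ran from 1.10 to 1.31. The probe set of Npc2 was of middling brightness: its mean signal was above that of 71.0% of the genes tested and of 89.2% of the array's negative control rows, and no detection call accompanies the values.

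Npc1, the membrane protein that takes cholesterol over from NPC2, went the other way in its mean, with wide scatter. It was at 9.50, 9.89, 9.49 and 9.46 in treated livers, against 9.55, 9.63, 9.93 and 9.70 in control livers. Treated replicate 2 stood among the highest of the 8 livers and the other 3 treated livers were the lowest. The difference was -0.12 ± 0.11 (limma adjusted p = 0.868). Without treated replicate 2 it was -0.22 (adjusted p = 0.543), and without control replicate 3 it was -0.044.

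Because NPC2 hands its cholesterol to NPC1, the log2 signal of Npc2 minus that of Npc1 was also compared within each array. A value of this kind shows unequal change, not a level of one gene against the other. It was -2.78, -3.33, -2.81 and -2.66 in treated livers, against -3.12, -3.25, -3.51 and -3.23 in control livers, so that 3 treated livers were above all controls and treated replicate 2 was among the controls. The groups differed by 0.38 (exact two-sided permutation p = 0.114, adjusted p = 0.286 over the 3 pairs of genes compared this way). Without treated replicate 2, the treated liver that went against the others, the difference was 0.53. Without any other single liver it was 0.30 to 0.43. All 3 pairs were chosen after the values were seen, and neither their permutation p-values nor the adjustment over the 3 pairs allows for that choice.

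Lipa, the acid lipase that splits cholesteryl esters and triglycerides, was at 10.90, 10.80, 10.83 and 10.75 in treated livers, against 10.85, 11.16, 10.78 and 11.19 in control livers. The treated livers lay close together, while control replicates 2 and 4 stood above all other livers. The difference was -0.18 ± 0.097, or 0.886-fold, with an adjusted p of 0.741 by limma, and it was no larger than the control SD of 0.21. Leaving out control replicate 2 or control replicate 4 brought it to -0.12 or -0.11.

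The groups overlapped for both cathepsin genes. Ctsb, a cysteine protease, had 11.58, 11.80, 11.93 and 11.75 in treated livers, against 11.70, 12.14, 11.62 and 11.80 in control livers, with control replicate 2 the highest of all. Its difference was -0.052 ± 0.12 (limma adjusted p = 0.969), and without control replicate 2 it was 0.055. Ctsl, the cathepsin L gene and a further cysteine protease, had 11.56, 11.38, 11.60 and 11.27 in treated livers, against 11.41, 11.35, 11.33 and 11.10 in control livers. Treated replicates 1 and 3 were the highest and control replicate 4 the lowest. Its difference was 0.15 ± 0.091 (limma adjusted p = 0.770), and its 95% interval, in fold, ran from 0.963 to 1.28. Without control replicate 4 the difference was 0.088. Ctsl minus Ctsb within an array, a pair also chosen after the values were seen, differed between the groups by 0.20 (exact two-sided permutation p = 0.286, adjusted p = 0.286 over the 3 pairs). The difference was 0.11 without treated replicate 1 or without control replicate 2.

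Lamp2, which also serves as the receptor of chaperone-mediated autophagy in one of its isoforms, was at 11.46, 11.51, 11.58 and 11.32 in treated livers, against 11.59, 11.60, 11.61 and 11.63 in control livers. All 4 treated livers were below the lowest control, by little in treated replicate 3 and by most in treated replicate 4, and the control SD was 0.019 against 0.11 in treated livers. The difference was -0.14 ± 0.058, or 0.907-fold (limma adjusted p = 0.617, unadjusted 0.0371), and without treated replicate 4 it was -0.094.

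Lamp1, the other major membrane glycoprotein, was at 11.47, 11.70, 11.50 and 11.65 in treated livers, against 11.54, 11.68, 11.54 and 11.49 in control livers, and the groups covered nearly the same range. Its difference was 0.019 ± 0.068 (limma adjusted p = 0.979). Lamp2 minus Lamp1, a pair also chosen after the values were seen, differed between the groups by -0.16 (exact two-sided permutation p = 0.229, adjusted p = 0.286 over the 3 pairs). The difference was -0.090 without treated replicate 4.

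Tfeb was at 6.58, 6.54, 6.56 and 6.63 in treated livers, against 6.67, 6.50, 6.66 and 6.55 in control livers. The treated livers lay inside the range of the controls. The difference was -0.020 ± 0.052 (limma adjusted p = 0.973), and the 95% interval in fold ran from 0.909 to 1.07. The messenger RNA level of Tfeb does not measure where its protein is, which is how mTORC1 controls it. Its signal was above 71.5% of the genes tested and 89.5% of the negative control rows.

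**Figure D2:**
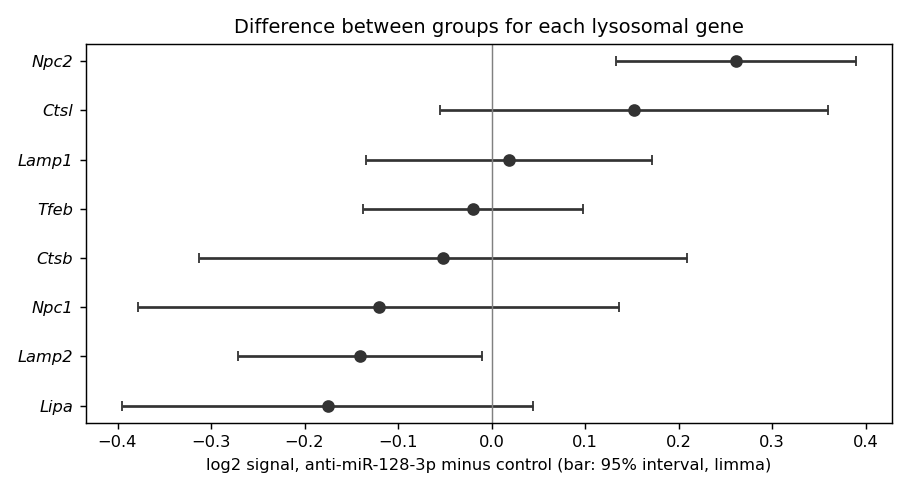
Difference in log2 signal between anti-miR-128-3p and control livers for each of the 8 lysosomal genes, with bars for limma's 95% interval (unadjusted, n = 4 each) and a line at 0. The intervals of 6 genes hold 0, that of Npc2 lies above it and that of Lamp2 just below it.

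As a group the 8 genes had no common direction, with 3 higher and 5 lower and a median log2 difference of -0.036, against -0.0017 over all genes tested. Control replicate 2 was the liver with the highest Ctsb and among the highest for Lipa and Lamp1, but it had the lowest Npc2 and Tfeb. Treated replicate 4 had the highest Npc2 and the lowest Npc1, Lipa and Lamp2. No liver was high or low for all 8 genes: the number of genes above their own mean ran from 2 in treated replicate 1 to 5 in treated replicate 2. The spread within groups, as a pooled SD, ran from 0.064 for Tfeb to 0.19 for Ctsb, with 0.11 as the median over genes at or above the median signal.

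TFEB binds DNA at a palindrome, called the CLEAR element, whose core is CACGTG. The promoters of 7 of the 9 genes matched by symbol in a RefSeq table (GRCm38.p6) that holds 250 bases before and 50 after each start. CACGTG, which reads the same on both strands, was found in those of Lamp1, Ctsl and Ctsd, that is in 3 of 9 promoters (Tfeb has 3). The share was 7.15% of all 32851 promoters, and 23.3%, or 47 of 202, of the promoters of the related lysosomal lists described below. Lamp1 had 4 matches, the first bases of which lie 61, 45, 28 and 15 bases before its start, and Ctsl had 1, at 236 bases before the start that the table uses. That start lies 252 bases inside the annotated 5′ end of Ctsl, so the match is within the gene's annotated span. The stretch of Lamp1 at chr8:13159090-13159161 on the plus strand and that of Ctsl at chr13:64370741-64370766 on the minus strand are shown with CACGTG in capitals, because these are the measured genes with a match.
Lamp1: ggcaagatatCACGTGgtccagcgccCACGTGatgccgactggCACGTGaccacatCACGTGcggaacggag
Ctsl: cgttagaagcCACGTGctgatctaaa
Neither the Lamp1 nor the Ctsl promoter held TCACGTGA, a longer form of the core. That form was found in 1 of the 9 promoters, that of Ctsd, against 0.974% of all promoters and 9.9% of those of the related lists. Both measured genes with the core had overlapping groups in the expression data. Neither Npc2 nor Lamp2, the genes whose groups did not overlap, held the core in these windows. Over the 8 genes and the related lists described next, 45 genes with CACGTG in a promoter had a median log2 difference of -0.035 and 126 without it -0.024, and over all genes tested the medians were -0.0069 for 1620 genes with it and -0.0074 for 16500 without it. Whether TFEB acts on any of these genes was not tested, and sites outside the windows are not seen here.

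Related genes were taken from 8 lists of the lysosome and its control, which together held 206 measured genes of 222 named. None passed the correction by limma. At an unadjusted p under 0.05 there were 4 higher and 21 lower, or 12.1%, against 7.63% of all genes tested and 11.2% of the genes at or above the median signal. The groups did not overlap in 10 of the 206, or 4.85%, against 4.41% of all genes and 5.89% of those at or above the median signal, and all 10 were lower. These background shares count both directions. As lower alone, 3.37% of all genes had an unadjusted p under 0.05 and 1.89% had no overlap. Among the 15314 genes at or above the median signal, 745 had an unadjusted p under 0.05 as lower and 355 had no overlap as lower. In mean, 124 of 206, or 60.2%, were lower, against 50.9% of all genes tested, with a median log2 difference of -0.025.

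**Figure D3:**
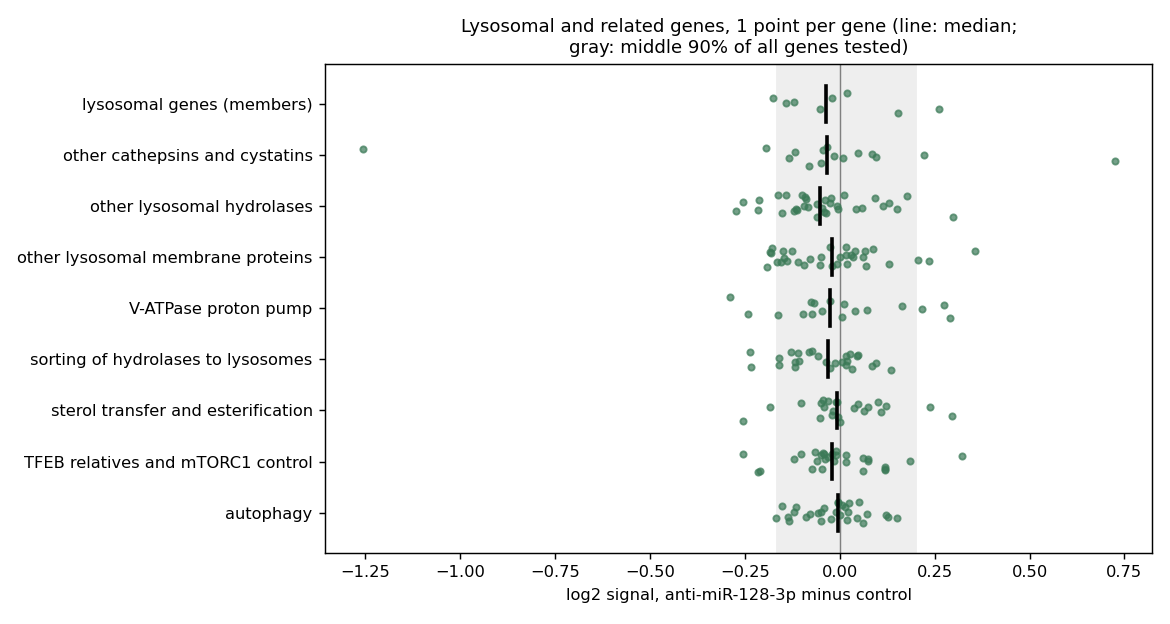
Difference in log2 signal between anti-miR-128-3p and control livers, 1 point per gene, for the 8 lysosomal genes (top row) and 8 lists of related genes, with a line at each median and a gray band over the middle 90% of all genes tested. Medians lie between -0.053 and -0.0057, and Ctss and Ctse among the cathepsins stand far from the rest.

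Other lysosomal hydrolases, listed with some related proteins, had 34 of 43 measured, with 9 higher, 25 lower and a median log2 difference of -0.053. At an unadjusted p under 0.05, 0 were higher and 6 lower, or 17.6%, against 7.63% of all genes tested and 11.2% of those at or above the median signal. These background shares count both directions. As lower, it was reached by 3.37% of all genes tested and by 745 of the 15314 genes at or above the median signal. Hyal2, a hyaluronidase, was at 8.35, 8.28, 8.25 and 8.36 in treated livers, against 8.48, 8.59, 8.54 and 8.50 in control livers. All treated livers were lower, with a difference of -0.22 ± 0.047 (limma adjusted p = 0.239). Siae, a sialic acid esterase, differed by -0.27 ± 0.085, Ids, the iduronate sulfatase, by -0.25 ± 0.092 and Acp2, the lysosomal acid phosphatase, by -0.16 ± 0.059, with limma adjusted p of 0.473, 0.554 and 0.558.

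Other cathepsins and their inhibitors, the cystatins, had 15 of 15 measured, 6 higher and 9 lower, with a median of -0.034. Ctss, the cathepsin S gene of antigen-presenting cells, was at 9.40, 8.43, 9.67 and 9.13 in treated livers, against 8.44, 8.77, 7.75 and 8.76 in control livers. Treated replicate 2 was within the range of the controls, and the difference was 0.72 ± 0.30 (limma adjusted p = 0.618). Ctse, the cathepsin E gene, ranged from 5.72 in treated replicate 2 to 8.73 in treated replicate 3, against 7.63 to 8.88 in control livers, and differed by -1.26 ± 0.59 (limma adjusted p = 0.689). Ctsa, whose product protects lysosomal glycosidases, differed by -0.12 ± 0.057 and the cystatin C gene Cst3 by -0.20 ± 0.11.

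Subunits of the V-ATPase, the proton pump that acidifies lysosomes, had 17 of 18 measured, 8 higher and 9 lower, with a median of -0.027. When they were divided by name into the sectors of the pump, a division made after the values were seen, 6 of 7 subunits of the V0 sector, which sits in the membrane, were lower in mean, and 7 of 8 subunits of the V1 sector, which splits ATP, were higher. Their medians were -0.097 and 0.055. Of the 17 subunits, 3 had an unadjusted p under 0.05 as higher and 3 as lower, or 35.3%. The share was 7.63% of all genes tested and 11.2% of those at or above the median signal. Atp6v0a1 was lower in all 4 treated livers, by -0.16 ± 0.047, as was Atp6v0e, by -0.24 ± 0.074, and Atp6v0a2 differed by -0.29 ± 0.10. Atp6v1f was higher by 0.22 ± 0.070. Limma adjusted p-values of these 4 lay between 0.430 and 0.553, and none passed.

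Regulators around TFEB and mTORC1 had 29 of 30 measured, 11 higher and 18 lower, with a median of -0.021. Rraga, a Rag GTPase that brings mTORC1 to the lysosome, was at 8.10, 8.12, 8.02 and 8.06 in treated livers, against 8.32, 8.22, 8.24 and 8.37 in control livers. All treated livers were lower, by -0.22 ± 0.050 (limma adjusted p = 0.269). Nprl2 and Nprl3, subunits of a complex that restrains the Rag GTPases, differed by -0.21 ± 0.066 and -0.10 ± 0.046, also with no overlap, and the tuberous sclerosis gene Tsc2, a brake on mTORC1, by -0.25 ± 0.075. Limma adjusted p-values of these 3 lay between 0.437 and 0.657.

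Genes that sort hydrolases to lysosomes had 26 of 26 measured, 11 higher and 15 lower, with a median of -0.031. Nagpa, which uncovers the mannose 6-phosphate tag of new hydrolases, differed by -0.23 ± 0.063 with no overlap (limma adjusted p = 0.372), and Gnptg, a subunit of the enzyme that attaches the tag, by -0.13 ± 0.051. The adaptor subunit genes Ap3d1 and Ap1m1 differed by -0.16 ± 0.066 and -0.12 ± 0.063. Other lysosomal membrane proteins had 33 of 35 measured, 15 higher and 18 lower, with a median of -0.020. The potassium and proton channel gene Tmem175 differed by -0.13 ± 0.048, Sidt2 by -0.19 ± 0.079, the cystine exporter gene Ctns by -0.18 ± 0.084, and Lamp3, a relative of Lamp1 that was dim at 3.21 in treated and 3.36 in control livers, by -0.15 ± 0.063. The limma adjusted p-values of these 8 genes lay between 0.372 and 0.725.

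Genes that carry sterols between membranes or act on cholesterol outside the lysosome had 23 of 25 measured, the cholesterol-esterifying enzyme genes Soat1 and Soat2 being the 2 not analysed here, 9 higher and 14 lower, with a median of -0.0071, and 0 had an unadjusted p under 0.05. The cholesteryl ester hydrolase gene Nceh1, which works at neutral pH where Lipa works in acid, differed by -0.26 ± 0.11, the sterol carrier gene Stard4 by 0.30 ± 0.16, Osbpl2 by -0.10 ± 0.051 and the phosphatidylserine synthase gene Ptdss1 by -0.19 ± 0.095 (limma adjusted p = 0.655 to 0.725). Autophagy genes had 29 of 30 measured, 13 higher and 16 lower, with a median of -0.0057. Atg12, a ubiquitin-like protein gene of autophagosome formation, differed by -0.17 ± 0.058 with no overlap, Atg9a by -0.13 ± 0.050, the protease gene Atg4b by -0.15 ± 0.066 and Atg2a by -0.12 ± 0.059 (limma adjusted p = 0.539 to 0.695).

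Lysosomes are plentiful in macrophages, and in a whole liver fewer cells of a type and less RNA per cell cannot be told apart. Kupffer cell and macrophage markers were higher in mean in 19 of 20 genes, with a median log2 difference of 0.31, and 0 passed over all genes by limma. At an unadjusted p under 0.05, 3 were higher, or 15%. As higher, that level was reached by 4.26% of all genes tested and by 968 of the 15314 at or above the median signal. Their mean gene-centred signal ran from -0.28 to 0.53 in treated livers and from -0.73 to 0.027 in control livers, so the groups overlapped, and all 20 markers were measured. Clec4f, the Kupffer cell lectin, differed by 0.50 ± 0.23, Vsig4 by 0.40 ± 0.36, Timd4 by 0.69 ± 0.30 and Cd5l by 0.76 ± 0.35. Treated replicate 2 had the lowest macrophage level of the treated livers and also their lowest Npc2 and Ctss. Among controls, replicate 3 had the lowest macrophage level and the lowest Ctss, Lipa and Ctsb, while its Npc2 of 6.43 was near the control mean. The part of macrophage content in the difference of Npc2 was not tested.

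**Figure D4:**
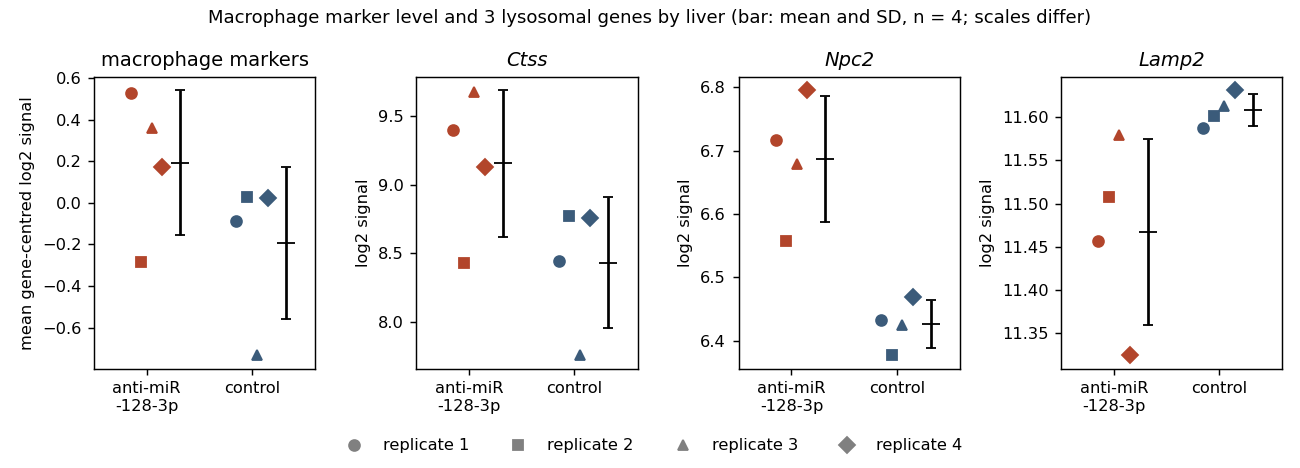
Mean gene-centred log2 signal of 20 macrophage markers and log2 signals of Ctss, Npc2 and Lamp2, 1 point per liver with its shape giving the replicate number, anti-miR-128-3p left and control right, with bars for mean and SD (n = 4 each). Treated replicate 2 and control replicate 3 are low for the markers and for Ctss, whereas the groups do not overlap for Npc2 and, by a narrow margin, for Lamp2.

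Of the hepatocyte markers, Alb was at 13.96 ± 0.052 in treated and 13.92 ± 0.044 in control livers (SD, n = 4 each), with a median log2 difference over 9 of 12 measured markers of -0.026, and Ttr, Apoa1 and Apob differed by -0.0089, -0.018 and -0.11. Interferon response genes were higher in mean in 14 of 14 measured genes of 15, by a median of 0.98, against 15027 of all 30627 genes tested. Ifit1 differed by 1.61 ± 0.24, Ifit3 by 0.99 ± 0.14, Usp18 by 1.66 ± 0.26 and Isg15 by 0.34 ± 0.10. Stellate cell markers had a median of 0.11 over 9 of 10, with Lrat at -0.063, Reln at -0.29, Des at 0.12 and Col1a1 at 1.62. Sinusoidal endothelial markers had a median of -0.25 over 10 of 10, with Stab2 at -0.19, Stab1 at -0.20, Clec4g at -0.53 and Lyve1 at 0.29. Medians were -0.023 for cholangiocyte markers (5 of 6), -0.27 for neutrophil markers (8 of 8) and 0.025 for lymphocyte markers (7 of 8). No gene of these lists, those of the interferon response and Col1a1 among them, passed the correction by limma. The part of these lists in the lysosomal genes was not tested.

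The genes whose pattern over the 8 livers was most like that of Npc2, Lamp2 and Lipa were found by the root mean square difference of gene-centred log2 signals, which is small when 2 genes are high and low in the same livers by the same amounts. For Npc2 they were LOC664787 at 0.034, Tmsb10, a gene of an actin-binding peptide, at 0.037 and Nxt1, a gene of messenger RNA export, at 0.044, out of 4920 genes searched. For Lamp2 they were Lmbr1 at 0.027, Cul3, a ubiquitin ligase scaffold gene, at 0.033 and Slc9a3r1, a scaffold gene of the apical membrane, at 0.035, out of 8572. For Lipa they were Hfe, the hemochromatosis gene, at 0.033, Myct1 at 0.071 and Efemp1 at 0.074, out of 4199. For comparison, the SD over the 8 livers was 0.16 for Npc2, 0.10 for Lamp2 and 0.17 for Lipa. The 3 genes nearest to Npc2 were higher by 0.29, 0.22 and 0.24, and the 3 nearest to Lamp2 differed by -0.13, -0.11 and -0.13, none past the correction by limma. The measure takes in the difference between the groups, so these similar differences follow from how the genes were picked.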

How the data were processed

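Liver RNA of 8 mice was labelled with biotin for an Affymetrix array, per the labels' protocols. The deposited values are log2 probe set signals made by the authors with RMA, per the submitters' processing notes. For RMA, the sources used here give neither a version nor a filter. Of 72688 rows, 6732 control rows were left out. Of the 65956 transcript probe sets, the platform annotation lists 32750: 23430 were named through the Entrez ID from a RefSeq table (GRCm38.p6), 7650 kept their symbol, and 1670 name several genes and were not used. The 31080 probe sets of 1 gene gave 30627 genes, with the brightest over the 8 arrays taken where there were several.

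Differences were tested with lmFit and eBayes of limma 3.58.1, run under R 4.3.3 (two-sided, no covariate, all 8 arrays, tested on simulated data), with Benjamini-Hochberg adjustment over all genes, and the within-array gene pairs with an exact permutation test over 70 assignments. Python 3.11.15 with pandas 2.3.3 made the tables. No filter on dim genes was applied. The number of arrays limits the precision. The 9 genes and the lists were chosen with earlier results of these data known. Named are the 9 genes, up to 4 genes of each related list by smallest unadjusted p, the first 4 measured markers of the main cell type lists, and the 3 genes most like Npc2, Lamp2 and Lipa among those at or above the median signal with an SD of at least 0.8 times its own (predicted Gm and Rik genes left out). Alternatives were moderation with trend and robust fit, array weights, leaving out genes below the median signal, the mean of probe sets, quantile normalization, median centring, the replicate number as a block, and leaving out each array in turn.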

Additional observations from a re-analysis of the deposited data

Results flagged for a closer look

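In groups of 4, a liver was singled out where its gap to the nearest other liver took more of the group's range than Dixon's critical value for 4 samples at the 95% level, which chance does in about 1 of 20 groups. 178 groups of the named genes and list levels were examined and 11 met the rule. Of the lysosomal genes only Npc1 did, at 9.89 in treated replicate 2 against 9.46 to 9.50 in the other treated livers. Atg9a was also highest there, at 8.09. The V-ATPase subunits Atp6v0e, at 7.65 in treated replicate 1, and Atp6v1f, at 7.01 in treated replicate 3, were low. Ap1m1 was high at 8.55 and Elane, a neutrophil granule gene, at 5.52 in control replicate 1. Stab2 was high at 9.10 in control replicate 2, and Col1a1 was low at 6.88 in control replicate 3. The macrophage marker level of control replicate 3 was -0.73, whereas the remaining controls lay between -0.089 and 0.027. The neutrophil marker level was -0.37 in treated replicate 2, against -0.045 to 0.0030 in the other treated livers, and 1.36 in control replicate 1, where the remaining controls lay between -0.41 and -0.18.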

How the results depend on the processing

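Npc1, Npc2, Lipa, Ctsl and Lamp2 kept their direction under all 16 alternatives, and no adjusted p of the 8 lysosomal genes came under 0.05 in any. Npc2 lay between 0.22 and 0.30, with adjusted p from 0.186 to 0.579, and Lamp2 between -0.19 and -0.094. Leaving out single arrays moved Ctsb between -0.12 and 0.055, Lamp1 between -0.022 and 0.057 and Tfeb between -0.051 and 0.0044, so that each changed sign. Ctsb was 0.0062 after quantile normalization, and Tfeb was 0.011 without treated replicate 3 and control replicate 1 together, an alternative chosen after seeing the data because these livers had the highest stellate and neutrophil levels. The median over the 8 genes ran from -0.051 to 0.0022 without single arrays. The number of genes called ran from 0 to 1, the gene called without control replicate 4 being Irgm1, an interferon-induced GTPase gene. With genes below the median signal left out, 1512 of the remaining 15314 genes had an unadjusted p under 0.05. The main fit gave 1713 among the same genes and 2337 among all 30627. The median of the V-ATPase list was -0.065 without treated replicate 2 and 0.012 without treated replicate 4. With the replicate number as a block, 0 genes were called, 2252 had an unadjusted p under 0.05, and Npc2 stayed at 0.26 (limma adjusted p = 0.463). Deviations of same-numbered arrays correlated across genes at -0.042, -0.041, -0.11 and -0.15. Those of arrays with other numbers correlated at -0.121 to 0.155. Same-numbered arrays were thus no more alike than others, but such values cannot show whether the livers were matched.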
